A study of Mus musculus with 12 samples.

Results

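The genes described are the protein kinase C isoforms, serine/threonine kinases grouped by what switches them on. The rule named 9 symbols and took the lines of the deposited expression table that the platform annotation gives for them. It found 8 among 24570 named genes: the conventional Prkca and Prkcb, the calcium-independent nPKC genes Prkcd, Prkce, Prkch and Prkcq, and the atypical Prkci and Prkcz. The remaining symbol is not analysed here. The rule itself uses gene symbols and no measured value.

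Whole retinas of 6 normoglycaemic control mice and 6 streptozotocin-diabetic mice were measured, with 1 array per animal. All animals were C57Bl6/J, and the protocol describes them as male. The diabetic mice had received streptozotocin, a toxin of the insulin-producing beta cells, into the peritoneum at 160 mg/kg at 8 weeks of age and 24 to 26 g body weight, and their blood glucose was above 15 mM after 7 days. The controls were non-diabetic and age-matched, and the labels do not say whether they received vehicle. Retinas were taken at 6 weeks; the series text gives 6 weeks as the age of the diabetic mice, which does not go with an injection at 8 weeks, so age and duration of diabetes are unsettled. Expression is given as log2 RMA values (robust multi-array average, a summary of many probes per gene), so a difference of 1 is a doubling.

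Conventional isoforms need calcium and the membrane lipid diacylglycerol, nPKC isoforms need diacylglycerol alone, and atypical isoforms respond to neither and are steered by protein partners such as Par6 and p62. High glucose is known to raise diacylglycerol made from glycolytic intermediates, and activation of protein kinase C, above all of its beta and delta isoforms, is one of the classical pathways proposed for diabetic damage to retinal vessels. In the retina the alpha isoform is also the standard marker of rod bipolar cells, the interneurons that carry rod signals. That activation concerns the protein and its place in the cell, which an array of transcripts does not measure.

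The array values come as 1 line per gene, although Prkcz has more than 1 transcription start. In brain, an internal start is known to give PKM zeta, a short kinase without the regulatory domain. RefSeq (GRCm38.p6) gave windows from 250 bases before to 50 after a start for 6 of the 8 genes. The windows of the 2 atypical genes are printed because the largest differences between the groups lay there. Each is written 5′ to 3′ on the gene's strand. Capitals mark the GC box (GGGCGG, or CCGCCC on the other strand) and the cAMP response element (TGACGTCA, the same on both strands). The E-box CACGTG and the TATA box TATAAA were searched as well, on both strands.
Prkcz, chr4:155361379-155361678, minus strand: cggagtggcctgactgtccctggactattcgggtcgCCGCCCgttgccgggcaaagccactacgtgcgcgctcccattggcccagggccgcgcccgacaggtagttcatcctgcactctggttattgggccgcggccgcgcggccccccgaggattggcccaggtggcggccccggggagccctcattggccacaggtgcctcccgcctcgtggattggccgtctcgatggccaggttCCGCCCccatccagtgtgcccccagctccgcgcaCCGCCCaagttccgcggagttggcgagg
Prkcz, chr4:155345740-155346039, minus strand: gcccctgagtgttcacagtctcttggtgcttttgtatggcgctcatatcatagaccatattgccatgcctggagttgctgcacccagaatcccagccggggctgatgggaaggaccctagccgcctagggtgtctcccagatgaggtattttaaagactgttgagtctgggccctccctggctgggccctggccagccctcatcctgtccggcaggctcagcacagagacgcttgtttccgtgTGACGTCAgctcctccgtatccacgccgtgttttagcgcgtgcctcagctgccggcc
Prkcz, chr4:155344700-155344999, minus strand: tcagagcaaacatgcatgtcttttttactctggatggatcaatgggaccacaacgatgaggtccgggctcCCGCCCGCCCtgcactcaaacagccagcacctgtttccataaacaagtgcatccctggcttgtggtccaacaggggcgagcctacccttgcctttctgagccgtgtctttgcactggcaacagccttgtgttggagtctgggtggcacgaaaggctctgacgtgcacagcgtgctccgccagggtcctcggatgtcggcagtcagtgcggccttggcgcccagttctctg
Prkci, chr3:30995521-30995820, plus strand: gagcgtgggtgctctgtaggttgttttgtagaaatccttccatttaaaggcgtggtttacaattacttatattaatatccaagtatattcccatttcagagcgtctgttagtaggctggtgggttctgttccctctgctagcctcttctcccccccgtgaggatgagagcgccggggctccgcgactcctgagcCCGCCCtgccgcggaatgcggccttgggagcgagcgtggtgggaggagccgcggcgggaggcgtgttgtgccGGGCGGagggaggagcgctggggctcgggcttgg

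The 3 Prkcz windows differed in these letters. The first, farthest upstream, held 3 GC boxes and had a GC content of 71.0%. The second held 1 cAMP response element, a motif found in 1.79% of all 32851 windows, and no GC box. The third held 2 GC boxes, which overlap each other, as 35.7% of all windows hold at least 1. The Prkci window held 2 GC boxes, and none of the 4 windows held the E-box (7.15% of all windows) or the TATA box (13.6%). These are matches of letters and not measured sites. Which of the Prkcz transcripts the array line counts is not stated in the labels, so a difference of Prkcz cannot be assigned to the full-length kinase or to PKM zeta.

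Among the 8 isoforms, 1 passed the test between diabetic and control retinas. Prkcz, the gene of the zeta isoform, fell by 0.22 on the log2 scale. Prkci, the gene of the other atypical isoform (iota, also called lambda in the mouse), had a value of 0.11 above controls and missed the threshold. No conventional or nPKC gene passed, the diabetes-linked beta and delta isoforms included. The test was limma's, across all genes, with Benjamini-Hochberg adjustment and a threshold of 0.05.

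Over all 24570 genes, 797 passed this test, 3.24% in either direction (1.47% higher and 1.77% lower in diabetic retinas), so the count of 1 of 8 rests on a single gene. At an unadjusted p under 0.05 there were 2 of 8 isoforms (Prkcz and Prkci), or 25%, beside 21.0% of all genes, which is close to the background. Control and diabetic arrays were fully separate for 0 of the 8 isoforms, beside 2.84% of all genes. The median absolute difference was 0.06 for the isoforms and 0.03 for all genes, while the genes that passed had a median absolute change of 0.19. The median signed difference was 0.03 for the isoforms and -0.0018 for all genes, with 5 isoforms above 0 and 3 below. All isoforms but Prkch had a mean above the array median of 5.73, while all genes include the dim lines. These shares and medians, and those given for list and marker genes below, are therefore not set against genes of like level.

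The arrays correlated with each other at 0.993 to 0.998. All had the same sorted values, with a median of 5.73, so a shift common to most genes would stay hidden. Measured rod markers, such as those of the phototransduction cascade, averaged 12.47 to 12.54 in controls and 12.45 to 12.53 in diabetic retinas, far above the array median, as in retina. Lens and pigment epithelium markers varied by array. The mean of the lens markers ran from 6.21 to 7.29 in controls and from 5.98 to 8.69 in diabetic retinas, and that of the pigment epithelium from 7.34 to 8.38 and from 7.21 to 8.88, with diabetic 6 highest in both. Beside the replicate number, each sample's description ends in an animal number. The ranges of these animal numbers do not overlap between the groups, and what they stand for is not stated; if they mark cohorts or days, these and diabetes cannot be told apart.

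**Figure D1:**
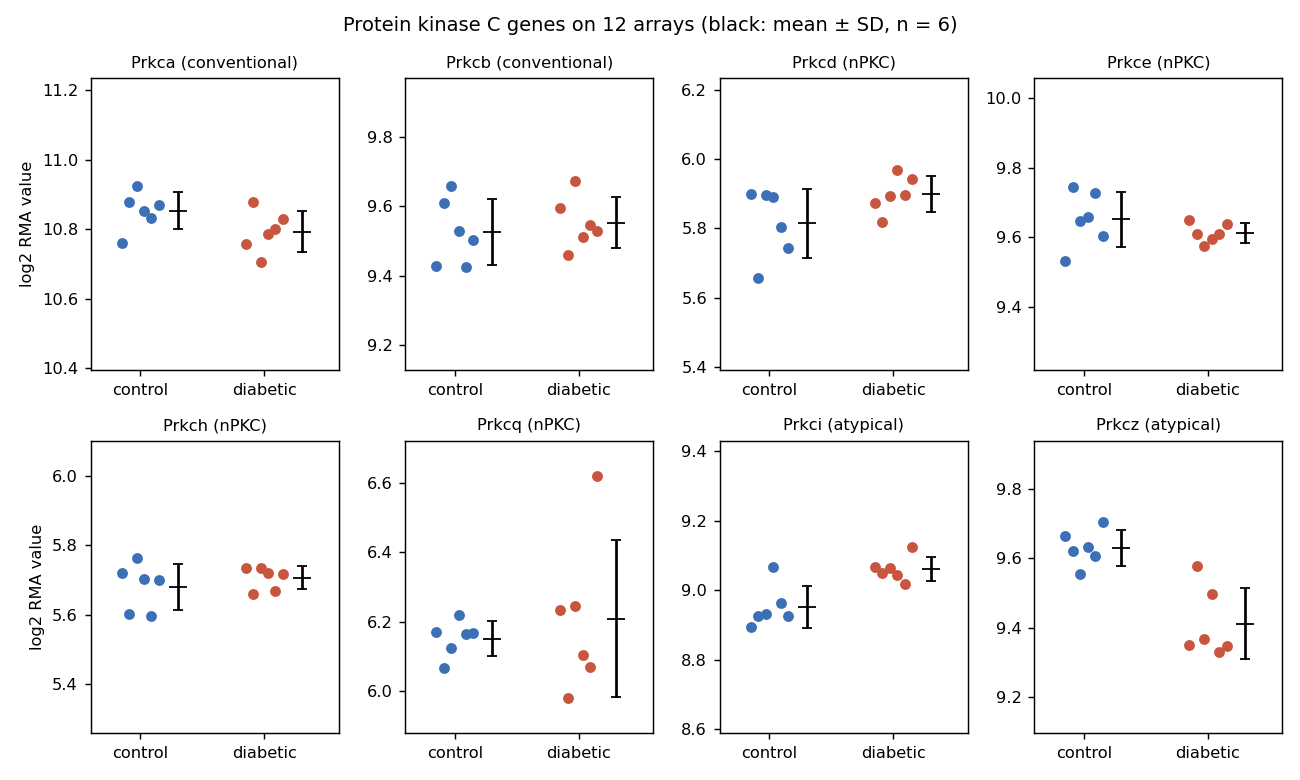
Level of each protein kinase C gene (log2 RMA value, vertical axis, same span of values in every panel) in 6 control and 6 diabetic retinas; each point is 1 array and the black bar is the mean ± SD. Prkcz is lower in diabetic retinas with diabetic 2 inside the control range, Prkci is higher except for control 4, and Prkcq has 1 high array, diabetic 6 at 6.62.

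The atypical isoforms bind Par6 and Par3 in the complex that sets cell polarity, and Prkcz and Prkci are close paralogs. In controls Prkcz had a lowest value of 9.55, a median of 9.63 and a highest of 9.71, and in diabetic retinas these were 9.33, 9.36 and 9.58. Of the 6 diabetic arrays, 5 lay below every control, and diabetic 2 (9.58) lay above control 3 (9.55), so the groups overlapped by that 1 array. Control retinas averaged 9.63 ± 0.05 and diabetic ones 9.41 ± 0.10 (SD, n = 6). The change was -0.22 ± 0.04 (SE), with a 95% interval from -0.31 to -0.12, or 1.16-fold lower (interval 1.09 to 1.24; limma adjusted p = 0.0268). An exact permutation test over all relabelings of the arrays gave a two-sided p of 0.00433, where the smallest possible is 0.00216, unadjusted for the number of genes.

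The call of Prkcz sat close to the threshold. It was lost in 6 of the 12 fits that left out 1 array, with limma adjusted p of 0.0515 without control 1, 0.0502 without control 2, 0.0524 without control 6, 0.0534 without diabetic 1, 0.0567 without diabetic 3 and 0.0528 without diabetic 6. The change itself ran from -0.25 to -0.20 over all 12 of these fits. Without diabetic 2, the array nearest to the controls, the adjusted p was 0.0102.

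Prkci had a difference of the opposite sign. Its lowest, median and highest values were 8.89, 8.93 and 9.07 in controls and 9.02, 9.06 and 9.12 in diabetic retinas. Here 5 of the 6 controls lay below every diabetic array, and control 4 (9.07) lay within the diabetic range. The means were 8.95 ± 0.06 and 9.06 ± 0.04 (SD, n = 6), a difference of 0.11 ± 0.03 (SE; 95% interval 0.05 to 0.17). It did not pass over all genes (limma adjusted p = 0.0560; exact permutation p = 0.0130, unadjusted). Without control 4 it was 0.13 with an adjusted p of 0.0146, the only such fit in which it passed.

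The differences of the 2 atypical genes thus had opposite signs on the same arrays, and only that of Prkcz passed the test. Subtracting Prkcz from Prkci within each array gave values from -0.78 to -0.56 in controls (mean -0.68 ± 0.08, SD) and from -0.53 to -0.22 in diabetic retinas (mean -0.35 ± 0.12), which do not overlap. The gap between the group means was 0.33. This comparison was made after the values of both genes had been seen and is given without a test. The 2 genes are the isoforms of smallest p and have opposite signs, so a wide gap is built into the subtraction. How many pairs of genes over the whole table separate in this way was not counted. The subtracted value in 1 array does not tell which gene had more transcript, since the lines have different probes.

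**Figure D2:**
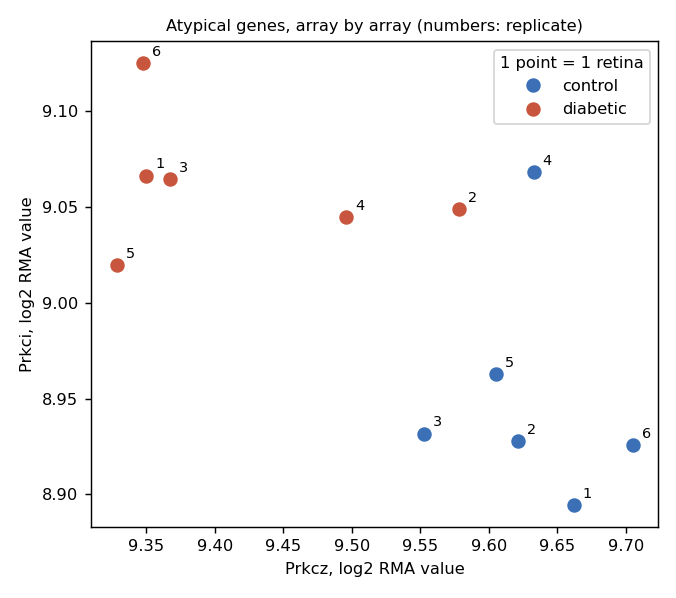
Prkci (vertical axis) against Prkcz (horizontal axis), both as log2 RMA values, 1 point per retina with its replicate number. Controls lie to the lower right and diabetic retinas to the upper left; control 4 has the Prkci level of the diabetic retinas, and diabetic 2 has the Prkcz level of the controls.

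The 2 conventional genes with values did not pass. Prkca, the rod bipolar cell isoform, had lowest, median and highest values of 10.76, 10.86 and 10.92 in controls and 10.71, 10.79 and 10.88 in diabetic retinas. Diabetic 3 and diabetic 1 were the lowest arrays, below every control, and the other 4 diabetic arrays lay among the controls. The difference was -0.06 ± 0.03 (SE; 95% interval -0.13 to 0.01; limma adjusted p = 0.301; exact permutation p = 0.0974).

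Prkcb, the isoform at which inhibitors for diabetic retinopathy were aimed, ran from 9.42 over a median of 9.52 to 9.66 in controls and from 9.46 over 9.54 to 9.67 in diabetic retinas. The groups covered nearly the same range. The difference was 0.03 ± 0.05 (SE, limma adjusted p = 0.786, exact permutation p = 0.593). Its 95% interval ran from -0.07 to 0.13, so its upper end was 1.09-fold on the scale of the normalized array values. No measure of background was used and all arrays share the same sorted values, so the interval does not bound a rise of the transcript itself. A change limited to vessels or to another small cell population would be diluted in whole retina. In such bulk tissue, fewer cells of a type and less RNA per cell cannot be told apart.

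Other markers of rod bipolar and ON bipolar cells were set beside Prkca. Of 11 measured markers, 8 had values below 0 and 3 above, and 2 fell (18.2%, beside 1.77% of all genes lower): Bhlhe23, a transcription factor of rod bipolar cells, by 0.27 ± 0.06 (SE; limma adjusted p = 0.0310) and Car8, a carbonic anhydrase-related protein, by 0.18 ± 0.04 (adjusted p = 0.0475). The markers above 0 were Isl1, a transcription factor of ON bipolar and other inner retinal cells, with 0.17 ± 0.04 (adjusted p = 0.0524, and 0.0127 without control 5), Cabp5, a calcium-binding protein, with 0.10 ± 0.06 (adjusted p = 0.356), and Trpm1, the ON bipolar cation channel, with 0.02 ± 0.04 (adjusted p = 0.865). The median difference of the list was -0.05. The mean of the list ran from 8.72 to 8.81 in controls and from 8.65 to 8.77 in diabetic retinas, which overlap. Over the 12 arrays, with each group's mean subtracted, Prkca followed this mean weakly (r = 0.18, rho = 0.29, and r = 0.08 without the 2 arrays farthest out). Its largest r with a marker mean was that with pericytes and smooth muscle (0.57, rho = 0.69, and r = 0.60 without control 5 and diabetic 6). With ganglion cells it had r = -0.44, and -0.62 without control 2 and control 6. Prkcz went against the bipolar mean (r = -0.66, rho = -0.73, and r = -0.58 without diabetic 4 and diabetic 6). Relations of this sign were not limited to bipolar markers, though some were less stable. With microglia and macrophages Prkcz had r = -0.62 (rho = -0.39, and r = -0.34 without diabetic 2 and diabetic 3). With pigment epithelium it had r = -0.51 (rho = -0.42, and r = -0.22 without diabetic 2 and diabetic 6). With red blood cells it had r = -0.52 (rho = -0.33, and r = -0.58 without control 4 and diabetic 1). The red blood cell mean (5.21 to 5.28 in controls) lay below the array median of 5.73. That of microglia and macrophages (5.68 to 5.73) lay about at it, where most lines are dim. With Mueller glia Prkcz had r = -0.50, and -0.58 without control 3 and control 5. It followed the rod mean (r = 0.53), and was near 0.12 with the pericyte and lens means. Points of such a correlation share an array and its normalization. With the bipolar marker mean as a covariate the change of Prkcz was -0.30 (limma adjusted p = 0.0354), beside -0.22 without it. The number of genes past the threshold over all genes went from 797 to 70 with that covariate. The bipolar mean itself averaged 8.76 in controls and 8.70 in diabetic retinas. Covariate and group therefore overlap in this fit, and their shares cannot be fully told apart. The part of bipolar cells in these values was not tested. The call of Car8 was lost in 10 and that of Bhlhe23 in 6 of the 12 fits without 1 array: Car8 stayed past the threshold only without control 5 or diabetic 6, and Bhlhe23 lost its call without control 2, 3 or 6 or diabetic 1, 3 or 4 (adjusted p 0.0543 to 0.0639).

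Among all marker lists of other cell types, only 1 cone and 1 pericyte or smooth muscle gene passed the test, beside 3.24% of all genes. In lists this short, 1 gene past the test does not set a cell type apart. Of 6 cone markers, 5 had values below 0, and Arr3, cone arrestin, fell by 0.30 ± 0.07 (SE; limma adjusted p = 0.0348), with every diabetic array below every control. Groups were fully separate, in either direction, for 2.84% of all genes. The cone mean ran from 10.28 to 10.44 in controls and from 10.11 to 10.32 in diabetic retinas. Of 6 pericyte and smooth muscle markers, 5 had values below 0, and Acta2, smooth muscle actin, fell by 0.21 ± 0.05 (adjusted p = 0.0367); their mean ran from 6.59 to 6.68 and from 6.55 to 6.65. Arr3 kept its call only without control 2, control 5, diabetic 2 or diabetic 5 (otherwise adjusted p 0.0542 to 0.0663), and Acta2 only without control 1, control 4 or diabetic 2 (otherwise 0.0505 to 0.0721). The other marker lists held 0 genes past the test, and the part of these cell types in the isoforms' values was not tested.

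**Figure D3:**
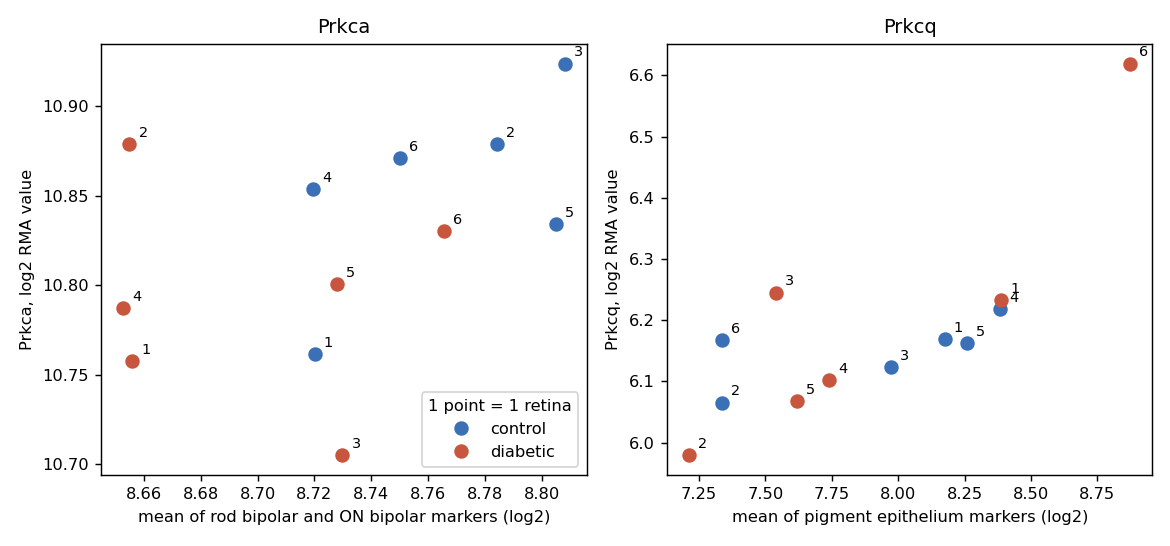
Prkca against the mean of the rod bipolar and ON bipolar markers (left) and Prkcq against the mean of the pigment epithelium markers (right), as log2 values, 1 point per retina with its replicate number. Prkca shows little relation to the marker mean within a group, and diabetic 6 is the highest array for both Prkcq (6.62) and the pigment epithelium mean (8.88).

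None of the 4 nPKC genes passed. Prkcd, the isoform tied to pericyte loss in diabetic retina, had values of 5.66, 5.85 and 5.90 (lowest, median, highest) in controls and 5.82, 5.89 and 5.97 in diabetic retinas. All 6 diabetic arrays lay above the control mean of 5.82, but 4 of them were no higher than the highest control. The difference was 0.08 ± 0.04 (SE; 95% interval -0.01 to 0.18; limma adjusted p = 0.298; exact permutation p = 0.117).

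Prkch, the eta isoform of epithelia, was the only isoform with a mean below the array median of 5.73. Its values were 5.60, 5.70 and 5.76 in controls and 5.66, 5.72 and 5.74 in diabetic retinas, with every diabetic array inside the control range (difference 0.03 ± 0.03, SE; limma adjusted p = 0.668). Prkcd, with 5.82 in controls, lay close to that median as well. Near it most lines are dim, and a real change of such a gene can be understated.

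Prkce, the epsilon isoform, found mainly in nervous tissue, gave 9.53, 9.65 and 9.74 in controls and 9.57, 9.61 and 9.65 in diabetic retinas. All 6 diabetic arrays were below the control mean and inside the control range. The difference was -0.04 ± 0.03 (SE; 95% interval -0.11 to 0.03; limma adjusted p = 0.536).

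Prkcq, the theta isoform of T lymphocytes and skeletal muscle, was the most variable of the 8 in diabetic retinas. Controls ran from 6.07 over a median of 6.17 to 6.22, and diabetic retinas from 5.98 over 6.17 to 6.62. The top value was that of diabetic 6, and the lowest that of diabetic 2, so the SD was 0.05 in controls and 0.23 in diabetic retinas. The difference was 0.06 ± 0.09 (SE; limma adjusted p = 0.759), and it was -0.025 without diabetic 6. Within the groups Prkcq followed the pigment epithelium mean over the 12 arrays (r = 0.78, rho = 0.68, and r = 0.50 without diabetic 2 and diabetic 6). It followed the Mueller glia mean too (r = 0.57, rho = 0.58, and r = 0.85 without control 3 and control 5) and the endothelial mean (r = 0.52, rho = 0.48, and r = 0.69 without the same 2), and went against the rod mean (r = -0.59, rho = -0.52, and r = -0.33 without diabetic 3 and diabetic 6). Such relations were not particular to Prkcq. Prkcd (r = 0.62, and 0.59 without diabetic 2 and diabetic 6) and Prkci (0.58, and 0.48) followed the pigment epithelium mean as well. Prkci also followed the lens mean (r = 0.60, and 0.61 without the same 2) and the endothelial mean (0.55, and 0.80 without control 3 and control 5). It went against the rod mean (r = -0.65, rho = -0.69, and r = -0.64 without diabetic 3 and diabetic 6). Prkcb followed the Mueller glia mean (r = 0.74, and 0.55 without control 3 and control 5). It also followed the mean of microglia and macrophages (r = 0.75, and 0.61 without diabetic 2 and diabetic 3), which lay about at the array median or below. The 2 arrays left out are in each case those farthest from the median of the marker mean. Diabetic 6 had the highest and diabetic 2 the lowest mean of the pigment epithelium markers. With this mean as a covariate the difference of Prkcq was 0.06. Lymphocyte markers, of which 5 of 6 were measured, averaged 5.29 to 5.32 in controls and 5.27 to 5.31 in diabetic retinas, below the array median. The part of pigment epithelium, glia or vessels in the values of Prkcq or the other isoforms was not tested.

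**Figure D4:**
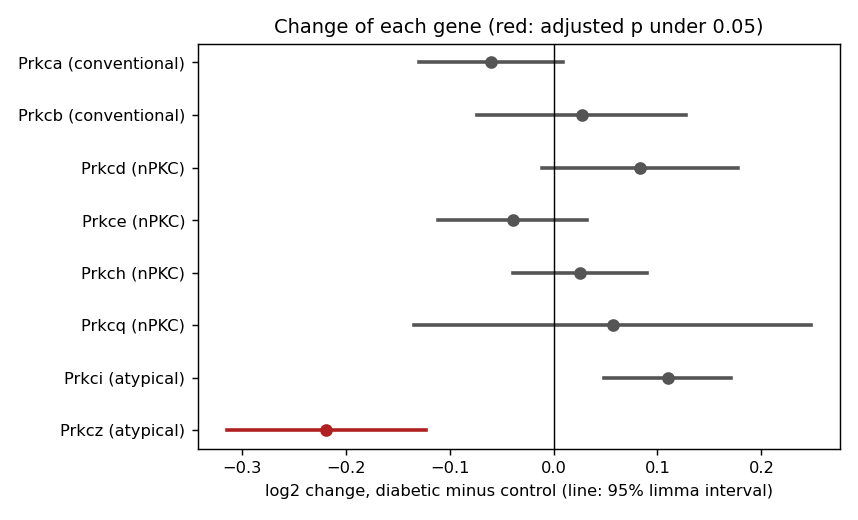
Difference of each gene between diabetic and control retinas on the log2 scale (horizontal axis, diabetic minus control) with its 95% limma interval, n = 6 per group. Only Prkcz, at -0.22, passed the test; the interval of Prkci (0.05 to 0.17) lies above 0 without a call over all genes, and the 6 others include 0.

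The isoforms did not vary as a set from animal to animal. Over the 28 pairs, the correlation of deviations from the group means ran from -0.61 (Prkce with Prkch) to 0.66 (Prkcd with Prkch), with a median of 0.04 and 16 pairs above 0. Prkci and Prkcz had r = -0.16 within the groups. Companions were sought among 12028 genes with a mean at or above the array median. The nearest to Prkcz was Tpd52 (r = 0.92), followed by Svil (0.89), and for Prkci they were Rnu11 (0.89) and Arhgef12 (0.86). Prkca went with Baz1b (r = 0.91) and Racgap1 (0.91), Prkcb with Cbln2 (0.94) and Aplp2 (0.93), and Prkcd with Slc25a40 (0.96) and Mrpl32 (0.95). Prkce went with Bmpr2 (r = 0.90) and Zfp804a (0.88), and Prkcq with Zfp994 (0.94) and B430319G15Rik (0.92). These are the highest values among all these genes over only 12 arrays, given as a description. No companion passed the test between the groups: Tpd52 differed by 0.03 ± 0.03 (SE; limma adjusted p = 0.623), and Svil, with 0.20 ± 0.07, went opposite to Prkcz (adjusted p = 0.147).

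The genes around protein kinase C were taken in 7 lists, with 67 of 73 members matched. Of these, 4 rose and 0 fell (5.97%, beside 3.24% of all genes), with 41 above and 26 below 0 and a median difference of 0.02. When only genes at or above the median were fitted, 835 genes passed, 3 of them from these lists. The share of 3.24% thus understates that among brighter genes, and no excess of list genes over these is shown. Phospholipases C, which release diacylglycerol from membrane lipid, held 0 of 12 past the test and 8 above 0 (median 0.04); the smallest p belonged to Plcd4 (0.12 ± 0.03, SE; limma adjusted p = 0.0573) and Plcb3 (0.09 ± 0.04; adjusted p = 0.223), both close to the array median in level. Diacylglycerol kinases, which remove diacylglycerol by phosphorylation, held 1 of 8 past the test and 6 above 0 (median 0.08). Dgkd, the delta kinase, known to limit diacylglycerol and protein kinase C signalling in muscle, rose by 0.17 ± 0.04 (adjusted p = 0.0442). Dgke, the epsilon kinase, had 0.09 ± 0.04 (adjusted p = 0.245).

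Newly made protein kinase C is primed by phosphorylation, by PDK1 and by mTOR complex 2, and is shut off by phosphatases. In this list 1 of 9 passed, with 4 above and 5 below 0 (median -0.01). Mtor, the kinase of that complex and of mTOR complex 1, rose by 0.15 ± 0.03 (limma adjusted p = 0.0348), and Ppp2ca, the catalytic subunit of protein phosphatase 2A, had -0.14 ± 0.04 (adjusted p = 0.0962). Of 13 substrates measured, 1 passed and 9 were above 0 (median 0.03). This was Add1, alpha-adducin of the membrane skeleton (0.10 ± 0.02; adjusted p = 0.0318), and its relative Add3 had 0.08 ± 0.03 (adjusted p = 0.136).

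Partners of the atypical isoforms held 1 of 11 past the test, with 6 above 0 (median 0.02). Map2k5, the kinase MEK5, which binds atypical protein kinase C through a PB1 domain, had the smallest p of all genes in the 7 lists. Its values were 7.54 (lowest), 7.62 (median) and 7.66 (highest) in controls and 7.70, 7.87 and 7.88 in diabetic retinas, so all 6 diabetic arrays were above all 6 controls. Groups were also fully separate for Add1 and Ppp2ca among the list genes, and for 2.84% of all genes in either direction. Map2k5 rose 1.17-fold (0.23 ± 0.03, SE; limma adjusted p = 0.0104). Pard6b, a Par6 adaptor of the polarity complex, had 0.23 ± 0.07 (adjusted p = 0.0909), while Pard6a had -0.04 ± 0.03 and Pard6g 0.03 ± 0.02. In controls Pard6b averaged 6.74, Pard6a 5.76 and Pard6g 5.35. The last 2 lay near or below the array median of 5.73, so a real change of either can be understated.

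Other proteins with a diacylglycerol-binding C1 domain held 0 of 12 past the test and 7 above 0 (median 0.02), with Rasgrp4 at -0.04 ± 0.02 (limma adjusted p = 0.212) and Prkd1, a protein kinase D, at 0.11 ± 0.06 (adjusted p = 0.269). Of the protein kinase C-related kinases, Pkn2 had 0.08 ± 0.03 (adjusted p = 0.171) and Pkn3 -0.01 ± 0.01 (adjusted p = 0.777). Rasgrp4 (5.56 in controls) and Pkn3 (5.37) lay below the array median, and the same limit holds for them. At an unadjusted limma p under 0.05 there were 17 of the 67 genes, beside 21.0% of all genes.

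Of the 4 genes that rose, Map2k5 passed in all 12 fits without 1 array (adjusted p 0.00233 to 0.0272). Add1 passed in 5 of them, Mtor in 3 and Dgkd in 2. Mtor kept its call only without control 5, diabetic 1 or diabetic 2 (otherwise adjusted p 0.0525 to 0.0687), and Dgkd only without control 5 or diabetic 6 (otherwise 0.0522 to 0.0850). Add1 lost its call without control 3, 4 or 6 or diabetic 1, 4, 5 or 6 (adjusted p 0.0503 to 0.0633). The direction of all 4 was upward in each of these fits.

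**Figure D5:**
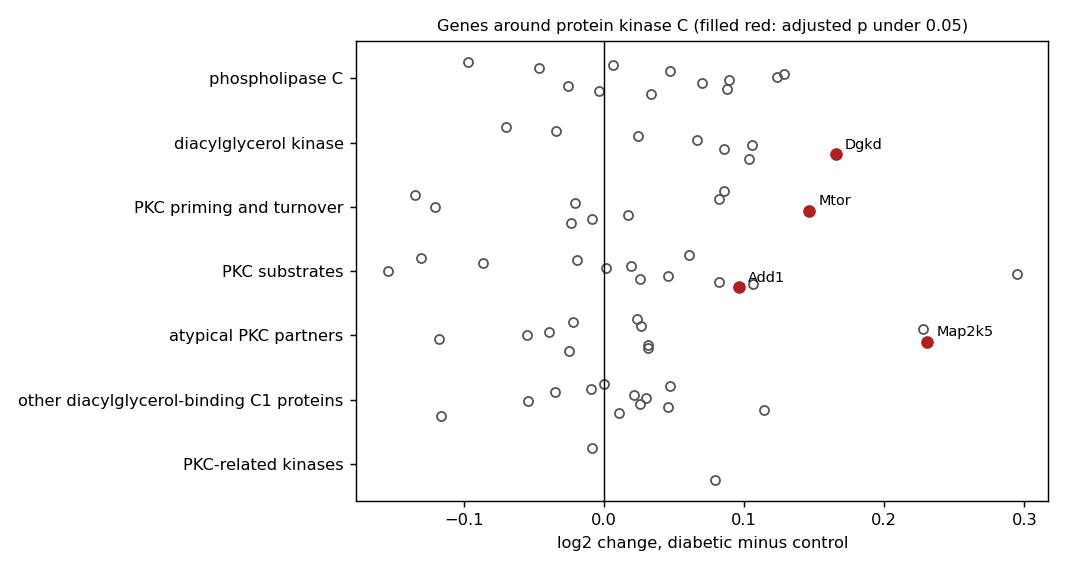
Difference between diabetic and control retinas on the log2 scale (horizontal axis, diabetic minus control) for the 67 measured genes of 7 lists around protein kinase C, 1 point per gene. The 4 filled red points, Dgkd, Mtor, Add1 and Map2k5, passed the test, and all lie above 0; open points did not pass.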

How the data were processed

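The deposited table gave log2 expression values of 12 arrays, made with RMA per the submitters' processing notes; for the RMA version, the array and the probe sets, nothing is stated in the sources used here. The table had 24973 lines, numbered by Entrez gene. The platform annotation named 24015 lines and RefSeq (GRCm38.p6) another 559; 399 unnamed lines were left out, and of 4 symbols on more than 1 line the brightest line was kept. Only genes named by the platform annotation are reported. Precision is limited by having 6 arrays per group, and no measure of background was used.

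All 24570 genes were fitted with limma 3.58.1 (R 4.3.3; lmFit and eBayes), diabetic minus control, with Benjamini-Hochberg adjustment and a threshold of 0.05, and without a filter on dim genes. Single genes were also compared with exact permutation tests (scipy 1.17.1). The procedure was tested on simulated data. The members and lists were chosen with earlier results of these data known. The text names all isoforms, list genes past the threshold, the 2 of smallest p in each pathway list, bipolar markers past the threshold and the 2 genes most like each isoform whose mean reached the array median; Pard6a, Pard6g, Isl1, Cabp5, Trpm1, Arr3 and Acta2 were added after their values were seen. Alternatives covered the variance model, filters, array weights, normalization, covariates, the replicate number, thresholds, lines per symbol and each array left out.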

Additional observations from a re-analysis of the deposited data

Results flagged for a closer look

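Of 90 groups of 6 arrays (45 named genes), 9 (10%) held 1 array that stood apart, with a gap to its neighbour that took more of the group's range than Dixon's 95% critical value allows; about 1 group in 20 does so by chance. None of the 8 isoforms was among them. Among partners and enzymes around protein kinase C, Map2k5 was low in diabetic 2 (7.70, ratio 0.790), Ppp2ca was low in diabetic 2 (10.17, ratio 0.664), Dgke was low in diabetic 6 (10.70, ratio 0.658), Add3 was low in diabetic 5 (10.57, ratio 0.779), Pard6g was high in diabetic 1 (5.43, ratio 0.631) and Rasgrp4 was high in diabetic 3 (5.58, ratio 0.651). Isl1 was high in control 5 (9.88, ratio 0.653). Among the genes most like an isoform, Zfp994, a companion of Prkcq, was high in diabetic 6 (6.45, ratio 0.704), the array in which Prkcq was highest, and Bmpr2, a companion of Prkce, was low in control 1 (9.93, ratio 0.645), the array in which Prkce was lowest. A companion was chosen for following the isoform, so a shared far array is part of that choice.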

How the results depend on the processing

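No isoform changed direction under the alternatives other than leaving out 1 array, and 6 of the 8 kept their side of the threshold in all of them (Prkch had no value with genes at or above the median). With the replicate number as a block, Prkcz had -0.22 with a limma adjusted p of 0.0576, and 0 isoforms passed. The numbers are shared between groups, and the labels do not say whether they mark pairs. Same-numbered arrays correlated at -0.17 to 0.18 in their deviations from the group means, and 1 of 6 controls matched its own number best. With 6 numbers, such correlations cannot decide whether the arrays are paired. At a threshold of 0.01 Prkcz (-0.22) did not pass and 0 isoforms did, and at 0.1 Prkci (0.11) passed too, giving 2. Prkci (0.11; adjusted p = 0.0319) also passed with the pigment epithelium covariate, again 2 isoforms. Leaving out 1 array gave 0 to 2 isoforms, with ranges of -0.25 to -0.20 for Prkcz, 0.10 to 0.13 for Prkci, -0.08 to -0.04 for Prkca, 0.0031 to 0.05 for Prkcb, 0.05 to 0.10 for Prkcd, -0.06 to -0.02 for Prkce, 0.0089 to 0.04 for Prkch and -0.025 to 0.10 for Prkcq, which turned (-0.025) without diabetic 6. Trpm1, near 0, turned with the lens covariate (-0.0015) and ran from -0.0044 to 0.042 without 1 array. The difference of medians in place of means changed no permutation call. Over all genes, 797 became 506 with the replicate block, 435 with the lens, 1229 with the pigment epithelium and 70 with the bipolar covariate, 1967 and 28 at thresholds of 0.1 and 0.01, and 325 to 835 without 1 array. The 4 pathway genes became 2 with trend and robust variances, with the replicate block and with the lens covariate, 0 with the bipolar covariate, 7 and 0 at the 2 thresholds, and 1 to 5 without 1 array. With the bipolar covariate their changes were 0.25 for Map2k5 (0.23 without it), 0.18 for Mtor (0.15), 0.16 for Dgkd (0.17) and 0.11 for Add1 (0.10), with adjusted p from 0.0531 to 0.194. Where a call was lost or gained, the cause was not tested, except that a change of threshold acts by construction. Leaving out 1 array did not always lower the count: 835 genes passed without control 5 and 813 without diabetic 2. The dim Prkcd and Prkch limit what these arrays can show.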
